A study of Mus musculus with 18 samples.

Results

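The Gnas imprinted complex was examined at the CpGs of mouse chromosome 2 whose deposited start lay from 174105000 to 174175000 on build mm9, across 18 methylation libraries of mammary epithelium. The libraries listed 307 CpGs in this window. Of these, 300 had at least 5 reads in some library and 108 had at least 5 reads in all 18, out of 1476285 and 711980 such CpGs in the whole series, and 7 never reached 5 reads. Single libraries measured from 190 of these CpGs (retired mature) to 300 of them (week 9 virgin progenitor).

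DNA methylation was read by multiplexed reduced representation bisulfite sequencing, in which the enzyme MspI cuts genomic DNA at CCGG and the CpG-rich fragments are then treated with bisulfite, so that unmethylated cytosine is read as thymine. All libraries came from mammary glands of C57BL/6 female mice, with no other genetic change or treatment named. Epithelial cells were separated into those labelled mammary epithelial stem cells, luminal progenitor cells and mature luminal cells, called stem, progenitor and mature here. Each cell type gave 1 library at each of 6 stages. These were week 3 and week 9 in virgin mice, pregnancy at day 10, at day 16 and at day 19, and retirement from breeding. Each cell type therefore had 2 virgin libraries, 3 pregnant libraries and 1 retired library. The labels give the age of the virgin mice only. Whether each library came from its own animal, from a pool, or from the animals of another cell type is not stated in them. For pregnancy and retirement, the p-values measure the spread between libraries of one cell type and state, stages of one state serving as the replicates. For cell types and for week 9 against week 3, they measure the spread left after terms for cell type and stage. In the week 9 contrast the cell types thus serve as the replicates. Age cannot be told apart from reproductive state. Cell type labels could not be checked against marker genes, because of 11 markers the 1 that could be placed on mm9 (Kit) had 0 CpGs with 5 reads in all libraries.

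Gnas encodes Gsα, the G protein subunit that couples hormone receptors to adenylyl cyclase. The same locus has several alternative promoters, in order Nesp, Gnasxl with the antisense transcript Nespas, exon 1A and Gnas itself. In somatic tissues the Nesp promoter is methylated on the paternal allele, while the promoters of Nespas and Gnasxl and of exon 1A are methylated on the maternal allele, the last 2 regions being imprints laid down in the oocyte. The Gnas promoter lies in an unmethylated CpG island on both alleles, and its tissue-specific imprinted expression is controlled from the exon 1A region. A region methylated on one parental allele only reads at a middle level in cells that carry both alleles. These libraries do not separate the alleles.

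The promoters themselves show how much of the complex the method reads. RefSeq (build GRCm38.p6) lists 4 starts under Gnas, which are called Nesp, exon 1A (a pair) and Gnas here from their order. Gnasxl also lies between Nesp and Gnas, so order alone does not show that the pair is exon 1A. Where possible, the promoter sequences of the 4 starts were placed on the mm9 positions. This was done by matching the spacing of their CG dinucleotides to the CpGs in the files. The 250 bases before the start of Nesp and of Gnas are shown, 5′ to 3′ on the plus strand, because they carry the contrast between a promoter at a middle level and an unmethylated one. Capitals mark the CpGs that had at least 5 reads in some library.
Nesp: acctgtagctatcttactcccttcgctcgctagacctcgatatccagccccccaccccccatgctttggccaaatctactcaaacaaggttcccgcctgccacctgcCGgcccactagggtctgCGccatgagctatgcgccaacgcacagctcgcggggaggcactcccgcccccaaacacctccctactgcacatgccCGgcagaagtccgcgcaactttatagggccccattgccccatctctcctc
Gnas: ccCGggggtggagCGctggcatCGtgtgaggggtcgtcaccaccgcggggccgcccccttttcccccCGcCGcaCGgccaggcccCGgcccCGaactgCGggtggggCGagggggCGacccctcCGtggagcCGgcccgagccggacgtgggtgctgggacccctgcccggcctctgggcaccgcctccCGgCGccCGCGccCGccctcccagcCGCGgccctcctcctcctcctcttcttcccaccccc

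Over 300 bases, from 250 before to 50 after the start, the Gnas promoter holds 40 CG dinucleotides, more than 96.1% of 32851 mouse promoters of that length (median 7). Its sequence matched the files at 21 CpGs, against 7 at the next best place in the genome, which put it at chr2:174155257-174155556 (mm9). The Nesp promoter holds 16 CG dinucleotides, of which 3 were covered. It was placed at chr2:174109571-174109870 as the 1 position in the window at which both of its CCGG sites were read. This is a weaker match than that of Gnas, since 338 positions over the genome met that criterion. By the count of matched CpGs used for Gnas, the best place for Nesp was on chr8, with 5 matches against 3 in the window. No position had all 6 CCGG sites of Gnas read. The placed Nesp and Gnas starts lie 45686 bp apart, the same distance as in the RefSeq table. The 2 RefSeq starts called exon 1A hold 27 and 28 CG dinucleotides and 0 CCGG sites and could not be placed by this matching. The letters TGCCGC, the core bound by the imprint-maintaining protein ZFP57, were searched on both strands and were found 0 times in these 4 promoter windows. They occur in 11.6% of all promoter windows of that length.

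At the 3 covered CpGs of the Nesp sequence, mean methylation over the 18 libraries was 29.0% ± 13.4 (SD) at the first, 31.6% ± 16.2 at the second and 51.4% ± 15.2 at the third in the order printed. At the 21 covered CpGs of the Gnas sequence the mean was 0.0875%, and 20 of the 21 were under 1%. The remaining one, the first CpG printed, was at 0% in 17 libraries and at 22.2% in the day 16 pregnant stem library. Apart from that value, the printed Gnas CpGs stood at or close to 0 in every library that covered them. The Nesp CpGs mostly did not, but the first and second were at 0% in day 16 pregnant progenitor and at 8.33% in retired stem.

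Most CpGs of the complex were neither methylated nor unmethylated throughout. Of the 300 CpGs, 174 (58%) had a mean level of 20 to 80%, 117 were under 20% and 9 were over 80%. Of the 108 measured in every library, 62.0% were at a middle level, against 16.7% of the 711980 CpGs measured in every library over the genome, where 39.7% were low and 43.7% high. The low CpGs of the complex lay together, with 109 of the 117 in the stretch chr2:174152432-174156457. It holds the exon 1A block described below and the Gnas promoter.

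**Figure D1:**
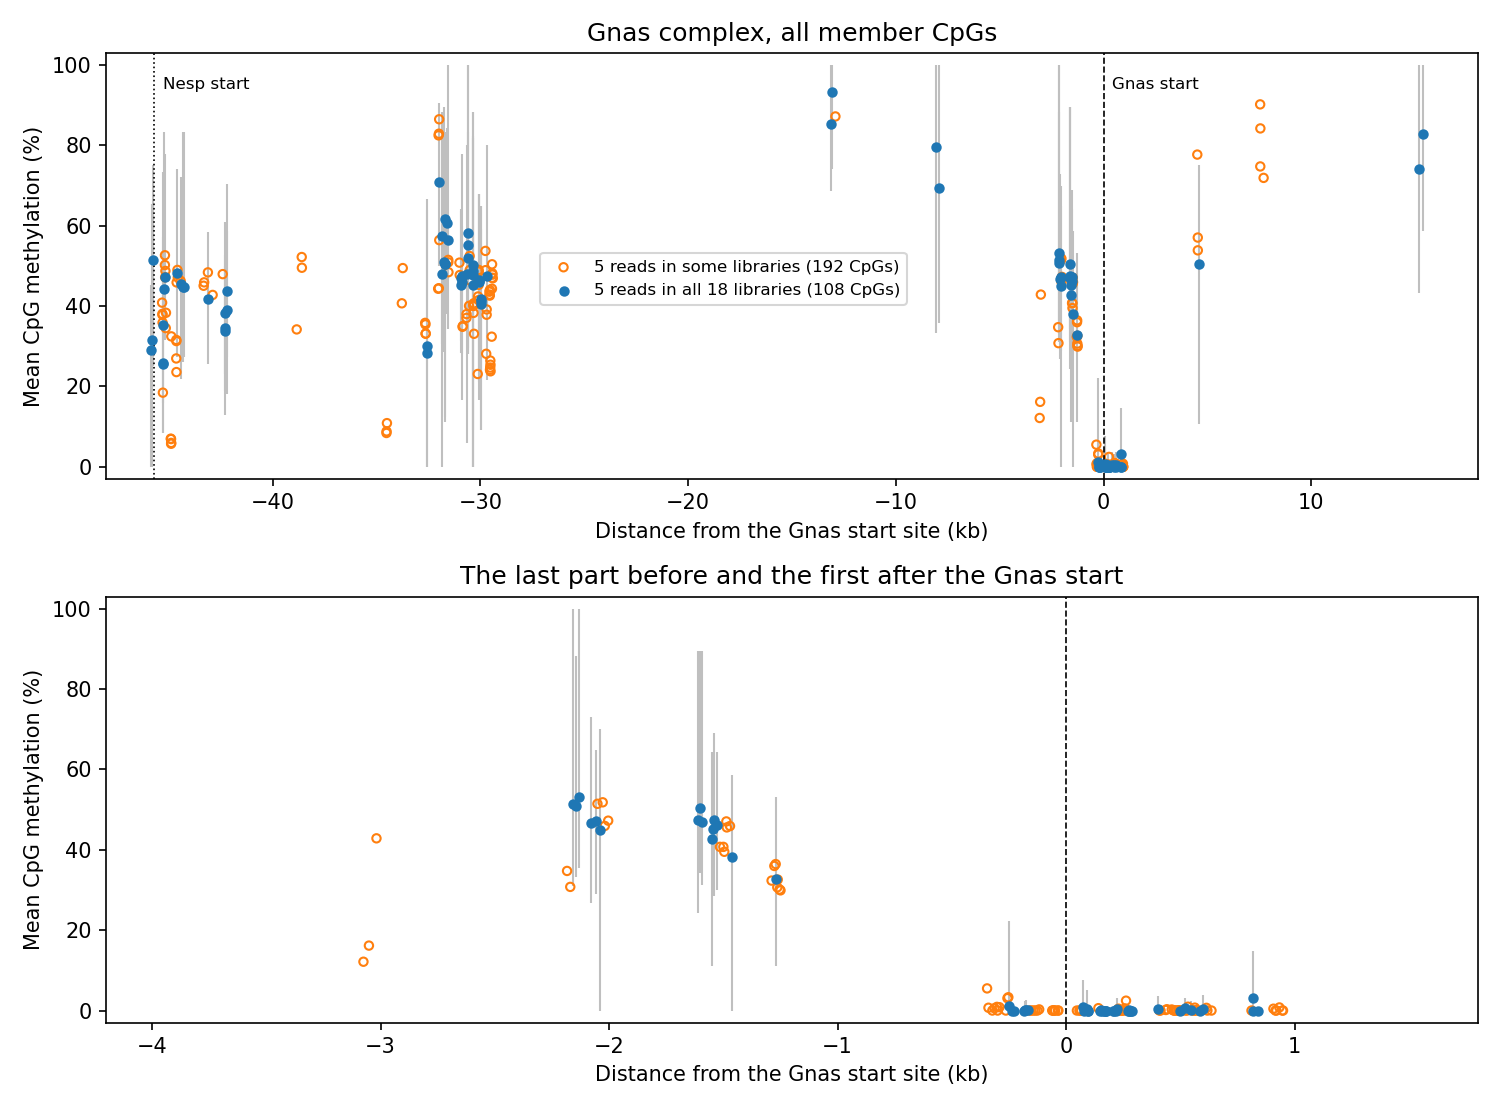
Mean methylation (%) of each CpG of the Gnas complex against the distance (kb) from the Gnas start site, for the whole window (top) and the region around the start (bottom). Filled points are the 108 CpGs with 5 reads in all 18 libraries, with grey lines from the lowest to the highest library, and open points are the 192 with 5 reads in some libraries; levels near the middle of the scale give way to levels near 0% just before the Gnas start.

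The CpGs measured in all libraries formed 5 blocks of at least 3 CpGs with gaps of at most 1000 bp. These 5 blocks held 101 of the 108 CpGs. The first, the Nesp block (chr2:174109678-174111225, 12 CpGs), contains the placed Nesp promoter. A second block followed downstream of Nesp (chr2:174112422-174113317, 6 CpGs). The third (chr2:174122921-174125830, 30 CpGs) is called the Nespas and Gnasxl block from its order in the complex alone, and likewise the fourth (chr2:174153351-174154240, 15 CpGs) the exon 1A block, since no mm9 annotation was used. The fifth, the Gnas promoter block (chr2:174155259-174156347, 38 CpGs), contains the placed Gnas start. A block's level in a library is the share of methylated reads summed over its CpGs.

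The Nesp block averaged 41.3% ± 3.42 (SD, n = 18 libraries). In stem cells it was 38.1% and 51.8% at week 3 and week 9, 43.5%, 44.8% and 36.4% at days 10, 16 and 19 of pregnancy, and 41.7% in retired breeders. In progenitor cells the same stages gave 36.9%, 43.5%, 40.6%, 40.3%, 41.8% and 41.8%. In mature cells they gave 39.3%, 42.1%, 40.1%, 40%, 39.8% and 40.1%. The week 9 virgin stem library was the highest (95% Wilson interval 47.8 to 55.7%), and the mature libraries lay within 39.3 and 42.1% at every stage. Pregnant and virgin libraries overlapped in each cell type.

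The block downstream of Nesp averaged 38.3% ± 6.71 (n = 18). In stem cells it was 39.1% and 41.7% in the virgin libraries, 36.6%, 27.0% and 32.5% at days 10, 16 and 19, and 41.4% in retired breeders. In progenitor cells the values were 34.1% and 34.0%, then 34.3%, 49.3% and 32.5%, then 36.1%. In mature cells they were 43.8% and 42.7%, then 38.5%, 51.7% and 29.1%, then 45.7%. Pregnant and virgin stem libraries did not overlap, the 3 pregnant ones being the lower (means 32.0% and 40.4%). The same order was seen in 18% of all 77064 tiles of 1000 bp tested over the genome, described below. At day 16 the cell types were furthest apart, stem being the lowest of all 18 libraries (interval 21.2 to 33.7%) and mature the highest (45.7 to 57.6%).

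The Nespas and Gnasxl block is a maternally methylated imprint by background and averaged 49.5% ± 4.46 (n = 18). In stem cells it was 45.6% and 55.9% in the virgin libraries, 52.2%, 52.8% and 47.1% in the pregnant ones, and 46.6% in the retired one. In progenitor cells the values were 45.3% and 48.0%, then 53.5%, 42.3% and 45.4%, then 55.3%. In mature cells they were 49.8% and 44.3%, then 45.9%, 52.0% and 52.6%, then 56.8%. The lowest library was day 16 pregnant progenitor (interval 38.2 to 46.5%) and the highest retired mature (52.2 to 61.4%). Virgin and pregnant libraries overlapped in all 3 cell types. The retired library lay above all 5 others of its cell type in progenitor cells (445 reads) and mature cells (438 reads) but not in stem cells. The same order held over all 17079 tiles of 1000 bp at a middle level in the genome, described below. There the median deviation from the mean of all 18 libraries was 1.51 points in retired progenitor and 2.86 points in retired mature, each the highest of its cell type. In retired stem it was 0.09 points, under the 1.67 points of week 9 virgin stem. Whether this block exceeds that background was not tested.

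The exon 1A block, the region from which imprinted expression of Gnas is controlled, averaged 47.1% ± 6.92 (n = 18). In stem cells it was 43.0% and 59.5% in the virgin libraries, 44.8%, 39.3% and 41.8% in the pregnant ones, and 49.1% in the retired one. In progenitor cells the values were 43.0% and 38.4%, then 45.3%, 58.3% and 46.4%, then 44.8%. In mature cells they were 50.5% and 48.0%, then 53.6%, 42.2% and 39.4%, then 60.5%. The pregnant progenitor libraries lay above both virgin ones (means 50.04% and 40.7%), an order seen in 7.89% of all tested tiles. In stem and mature cells pregnant and virgin libraries overlapped. The day 16 progenitor value rests on 204 reads (interval 51.5 to 64.9%), and the highest, retired mature, on 271 reads (54.6 to 66.2%).

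The Gnas promoter block, which serves Gsα, averaged 0.224% ± 0.206 (n = 18). Pooled over libraries, 57 of 32063 reads were methylated, or 0.178% (95% Wilson interval 0.137 to 0.230%). The highest library was day 16 pregnant stem at 0.866% (7 of 808 reads), the median library was at 0.179%, and day 16 pregnant progenitor had 0 of 600 reads, which allows a share of up to 0.5% by a limit of 3 reads and up to 0.636% by the Wilson interval. Intervals and limits cover counting error only, since reads may be copies of one molecule. Summed over the block, no library was above 1% methylated reads. The 8 CpGs of the block from chr2:174156001 on were above 1% in some libraries. They were at 3.70% in day 16 pregnant stem, 1.48% in day 16 pregnant mature, 1.27% in retired mature and 1.03% in retired stem.

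**Figure D2:**
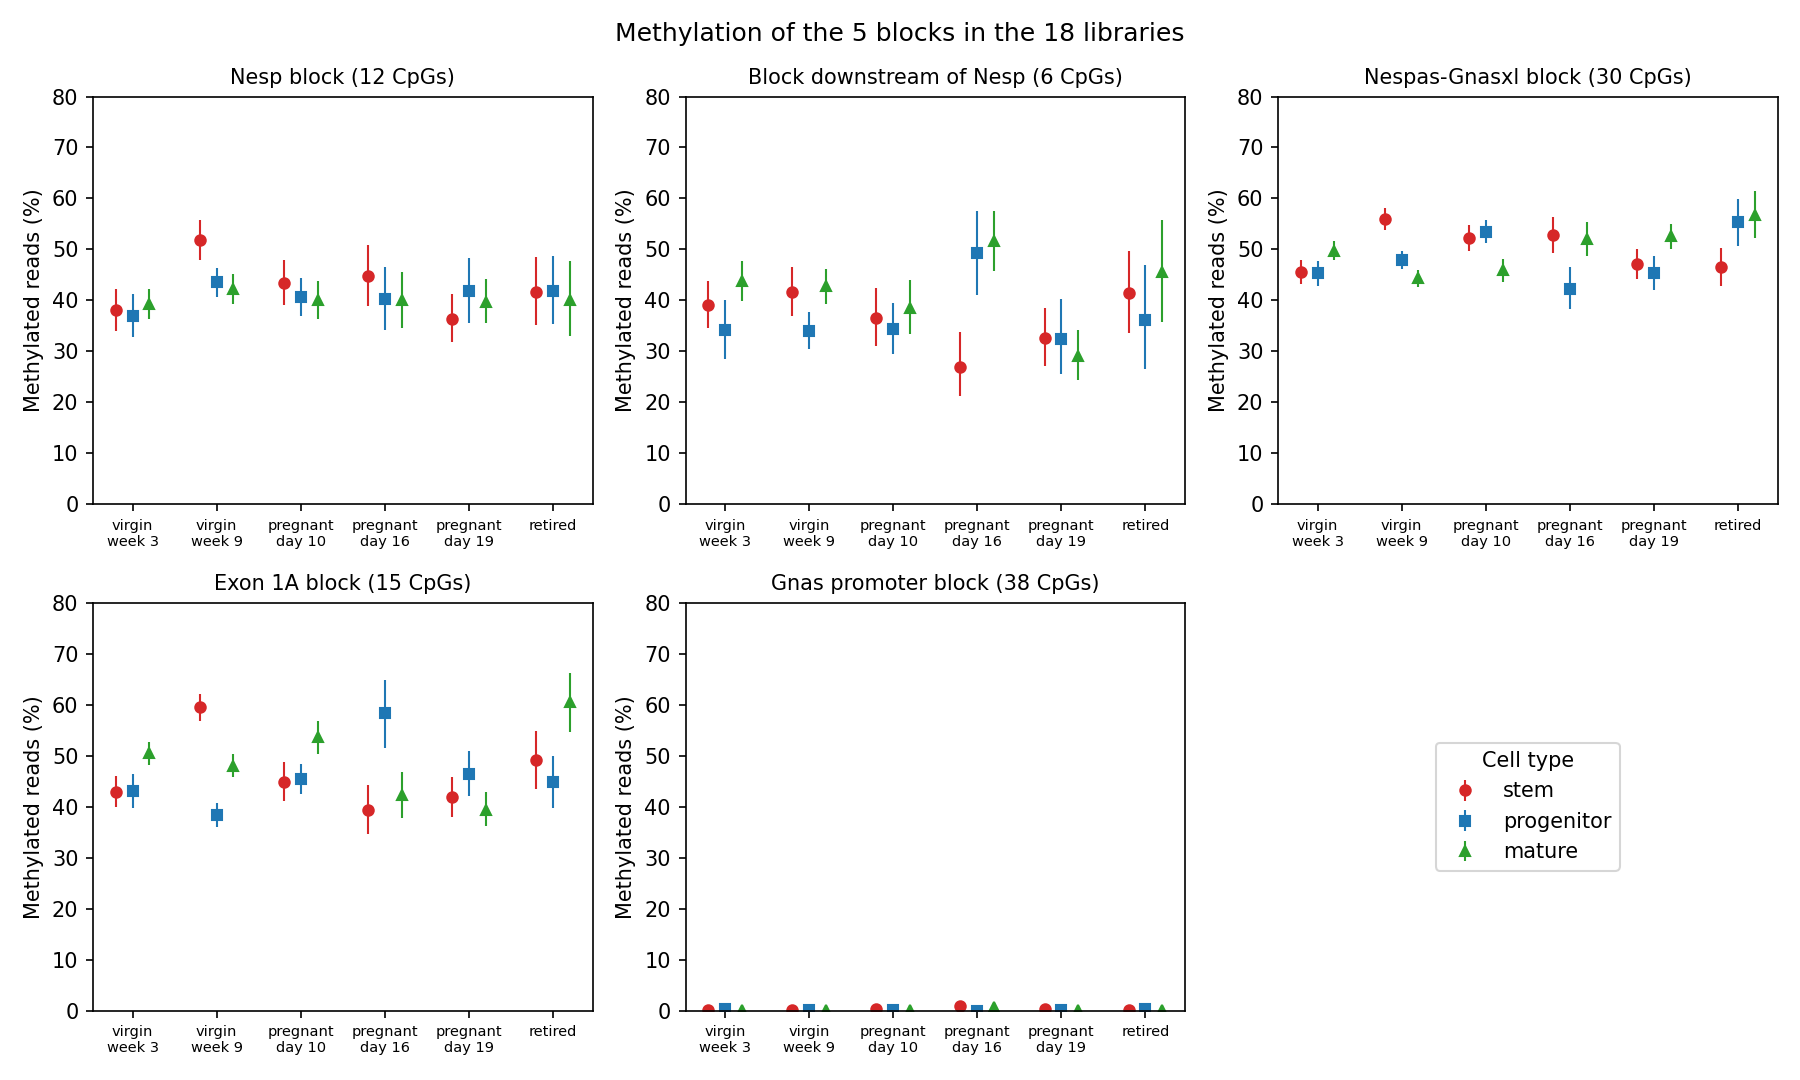
Methylated reads (%) in each block, by stage on the horizontal axis and by cell type (circles stem, squares progenitor, triangles mature), with 95% Wilson intervals of the read counts as bars. In the first 4 panels the points lie between 27.0 and 60.5%, and in the Gnas promoter panel they all lie under 1%; the names of the Nespas-Gnasxl and exon 1A panels follow the order of the blocks.

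The step from the exon 1A region to the Gnas island was short. The last CpG at 20% or more, chr2:174154257, had a mean of 29.9% in the 16 libraries that covered it. The next CpG covered lay 904 bp further on and was at 5.51% in 7 libraries. From chr2:174155167 on, 106 covered CpGs up to chr2:174156457 averaged 0.243%, 101 of them were under 1% and 72 were at 0% in every library that covered them. Where within these 904 bp the level falls was not measured, since no CpG between them reached 5 reads.

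Single CpGs also differed within the middle blocks. In the Nesp block means over libraries ran from 25.6% at chr2:174110239 to 51.4% at chr2:174109771. In the block downstream of Nesp they ran from 33.9% at chr2:174113240 to 43.7% at chr2:174113295. The widest range was in the Nespas and Gnasxl block, from 28.4% at chr2:174122921 to 70.8% at chr2:174123520. In the exon 1A block levels ran from 32.8% at chr2:174154239, the CpG nearest the Gnas island, to 53.3% at chr2:174153376. Neighbouring CpGs, often read on the same fragment, were closer to each other than distant ones in the same library. The median absolute difference in the exon 1A block was 2.19 points for pairs within 20 bp and 10.5 points for pairs over 200 bp apart, and in the Nespas and Gnasxl block it was 5.25 and 15.4 points.

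The other 7 CpGs measured in all libraries lay between and beyond these blocks. Between the Nespas and Gnasxl block and the exon 1A block, a pair of CpGs at chr2:174142405-174142423 averaged 89.2% ± 7.15 (n = 18), and a pair at chr2:174147421-174147578 averaged 72.7% ± 14.5. Beyond the Gnas promoter, the CpG at chr2:174160093 averaged 50.5% ± 20.3 and a pair at chr2:174170685-174170876 averaged 77.3% ± 9.96. CpGs read in some libraries only, between the block downstream of Nesp and the Nespas and Gnasxl block, ranged from 8.41% at chr2:174120990 to 52.2% at chr2:174116911. The CpG at chr2:174160093 had only 6 to 94 reads a library.

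The 4 middle blocks did not move as one across libraries. Pearson's r over the 18 libraries was 0.62 between the block downstream of Nesp and the exon 1A block, 0.43 between the Nesp block and the Nespas and Gnasxl block, 0.28 between the Nesp and exon 1A blocks, and between -0.08 and 0.07 for the other 3 pairs. These are descriptions over libraries that share depth across blocks. The week 9 virgin stem library ranked 1st of 18 in the Nesp block, 2nd in both the Nespas and Gnasxl and the exon 1A blocks, and 6th in the block downstream of Nesp. With reads pooled over the 4 blocks, it was at 55.2% and retired mature at 53.9%, while the other 16 libraries lay between 42.4% and 47.9%.

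For tests, reads were summed in tiles of 1000 bp with at least 3 CpGs measured in all libraries. The complex held 10 of the 77064 tiles tested, with 96 of the 108 CpGs, and 8 of the 10 were at 20 to 80% (80%, against 22.2% of all tiles). The other 2 cover the Gnas promoter. Each comparison was fitted to every tile with a moderated quasi-binomial logistic regression and Benjamini-Hochberg adjustment over all tiles, and calls needed both an adjusted p below 0.05 and 10 percentage points or more between the means. All adjusted p-values below come from this model, whose moderation follows limma.

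None of the 10 tiles was called in any of the 13 comparisons. The background was low as well. Between pregnant and virgin stem libraries 0.158% of all tiles were called, and in each of the other 12 comparisons 0% were. At an unadjusted p under 0.05, 1 of the 10 tiles passed for pregnancy in stem cells (14.2% of all tiles), 0 in progenitor cells (3.79%) and 0 in mature cells (5.11%). Averaged over cell types, 1 passed for pregnancy (6.52% of all tiles), 2 for retired against virgin (5.32%) and 1 for retired against pregnant (4.82%). With 10 tiles a single tile makes up 10% of the complex, so these counts say little about it beside the background.

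Pregnancy in stem cells is the contrast in which tiles elsewhere in the genome were called. The tile of the complex with the largest difference was chr2:174113001-174114000, in the block downstream of Nesp. It was at 38.8% and 43.7% in the virgin libraries and at 35.0%, 25.3% and 31.9% at days 10, 16 and 19. The pregnant libraries lay below the virgin ones by 10.5 points (adjusted p = 0.493). It was the 1 tile of the complex with every pregnant stem library below both virgin ones, as in 18% of all tiles. Of the 8 middle tiles 6 were lower and 2 higher in pregnancy, with a median difference of -1.09 points. Over all 17079 middle tiles 63.1% were lower, with a median of -2.999 points. Without the week 9 virgin stem library these counts became 3 lower and 5 higher, with a median of 2.01 points, against -2.75 points over all middle tiles.

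The Gnas promoter tile chr2:174155001-174156000 was the stem tile with p under 0.05, at 0.0546% and 0% in virgin libraries and 0.244%, 0.297% and 0.184% in pregnant ones (adjusted p = 0.334). Every pregnant stem library was above both virgin ones, as in 8.06% of all tiles. The difference was 0.214 points, far under the 10 points required for a call. In mature cells the same tile and its neighbour chr2:174156001-174157000 had every pregnant library above both virgin ones, as in 6.57% of all tiles, and 0 tiles of the complex had them below (8.72% of all). The highest level of either tile in any of the 18 libraries was 3.70%.

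In progenitor cells the largest difference was at chr2:174153001-174154000, the exon 1A tile. It was at 42.6% and 39.0% in virgin libraries and at 47.0%, 59.9% and 47.7% in pregnant ones, a difference of 10.8 points (adjusted p = 1). Without the day 16 progenitor library it was 6.57 points. It was the 1 tile with every pregnant progenitor library above both virgin ones (7.89% of all tiles). The tile that holds the placed Nesp promoter, chr2:174109001-174110000, was the 1 with all of them below (8.24%). In mature cells the largest difference was at chr2:174113001-174114000, 38.6% in pregnancy against 44.7% (adjusted p = 0.949). The 3 pregnant values there were 36%, 51.2% and 28.5%, and the difference of -6.10 points became -12.4 points without day 16 and -1.06 points without day 19.

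Averaged over the cell types, the largest pregnancy difference was also at chr2:174113001-174114000, with 35.5% against 39.9% (adjusted p = 0.836). That difference of -4.40 points was -6.67 points without the day 16 progenitor library and -2.72 points without the day 19 mature library. The pregnancy effects of cell types differed most at the exon 1A tile, where pregnant minus virgin was -9.38 points in stem, 10.8 points in progenitor and -3.19 points in mature cells. The stem effect differed from the progenitor effect by -20.1 points (adjusted p = 0.433). Without the week 9 virgin stem library this difference was -10.8 points (adjusted p = 0.81). Stem differed from mature cells by -6.19 points (adjusted p = 0.756), a value that turned to 3.14 points without the week 9 virgin stem library. It was -15.5 points without the week 3 virgin stem library, -1.87 points without day 10 mature and -9.49 points without day 19 mature. Progenitor differed from mature cells by 13.9 points (adjusted p = 0.997). At p under 0.05, 1, 0 and 0 of the 10 tiles passed in these 3 contrasts, against 10.4%, 11.3% and 4.66% of all tiles.

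**Figure D3:**
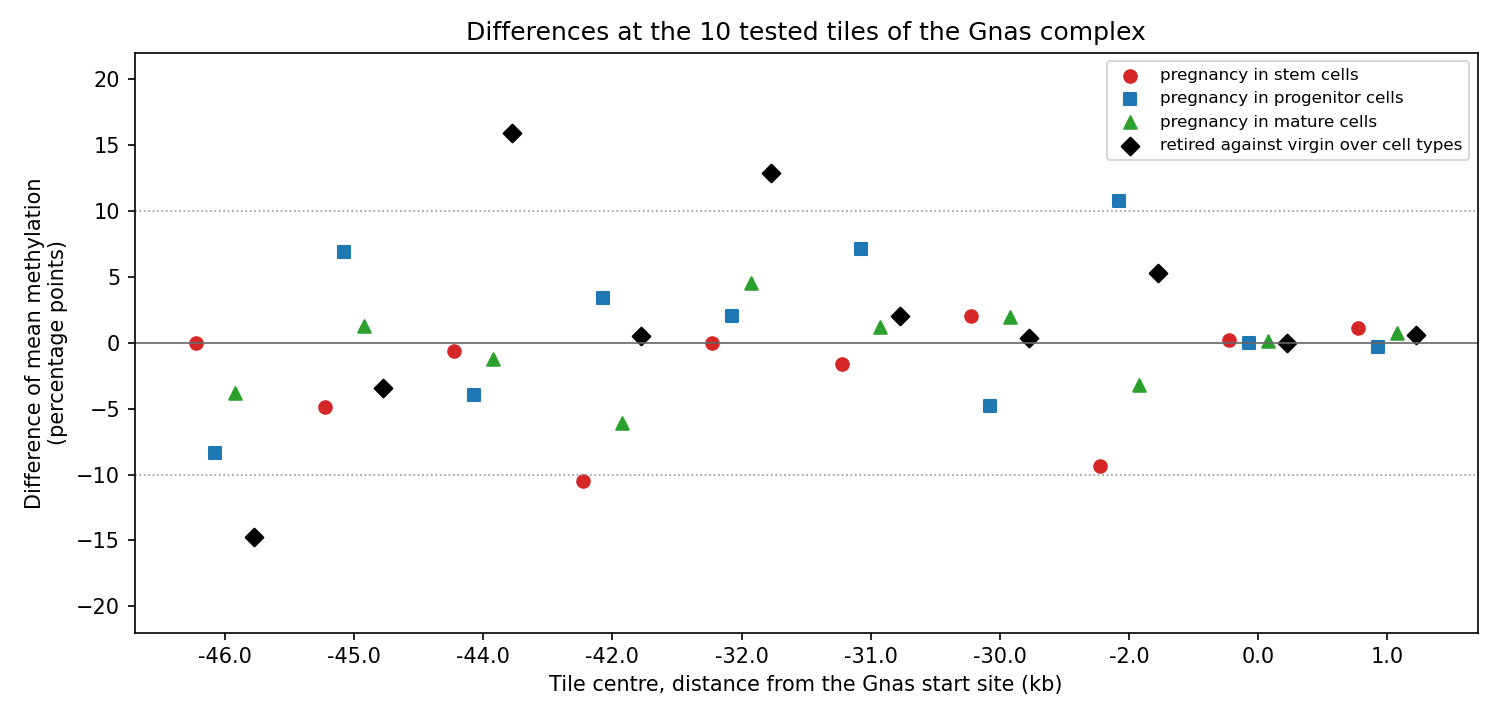
Difference of mean methylation (percentage points, first minus second group) at the 10 tested tiles, placed by the distance (kb) of the tile centre from the Gnas start site, for pregnant minus virgin in each cell type and for retired minus virgin over cell types. Dotted lines mark the 10 points required for a call; 3 retired markers, 1 progenitor marker and 1 stem marker lie beyond them and none was called, while the 2 Gnas promoter tiles stay near 0.

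Retired breeders had 1 library per cell type, all of them shallow (median 10 to 13 reads per CpG). The largest difference from virgin libraries was at chr2:174111001-174112000, in the Nesp block, at 59.8% against 43.9% (adjusted p = 0.884). The retired values there were 51.7% in stem, 72.3% in progenitor and 55.6% in mature cells, and the virgin values ran from 39.0 to 56.5%. Against pregnant libraries the same tile differed by 17.9 points (adjusted p = 0.945). Without the retired progenitor library these differences were 9.55 and 10.5 points. The Nesp promoter tile chr2:174109001-174110000 went the other way, at 28.4% in retired against 43.1% in virgin libraries (-14.7 points, adjusted p = 0.884), and the Nesp block as a whole differed by -0.76 points. The smallest unadjusted p was at chr2:174123001-174124000 in the Nespas and Gnasxl block, 12.9 points above virgin libraries (adjusted p = 0.884), where the retired stem library stood at 80.2% and the next highest library at 62.8%.

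Between week 9 and week 3 virgin mice, 7 of the 8 middle tiles were higher at week 9, with a median difference of 4.36 points. Over all middle tiles 55.2% were lower at week 9, with a median of -0.55 points. Without the week 9 stem library, 4 were higher and 4 lower, with a median of 0.52 points. The largest difference was at the Nesp promoter tile, 48.5% against 37.8% (adjusted p = 0.788), and it was 5.93 points without the stem library of either week. At p under 0.05, 1 of the 10 tiles passed, against 6.27% of all. That library also stood above the mean of all 18 at 7 of the 8 middle tiles of the complex, by a median of 10.4 points, while over all 17079 middle tiles its median deviation was 1.67 points, the third highest. Retired mature stood above at 7 of the 8 tiles too, by 7.82 points, against 2.86 points over all middle tiles, the highest of the libraries.

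Cell types were compared within stages. The Nesp promoter tile gave the largest differences. It averaged 41.0% in stem, 29.96% in progenitor and 45.1% in mature libraries, so stem was higher than progenitor by 11.0 points (adjusted p = 0.387) and progenitor lower than mature by 15.1 points (adjusted p = 0.817). Progenitor values there were 36.7%, 37.8%, 28.7%, 26.5%, 31.4% and 18.6% from week 3 to retired, and mature values 41.0%, 51.7%, 43.6%, 40.6%, 43.5% and 50%. The mature library was therefore higher at every stage, on 35 to 234 reads a library, but the difference did not pass the adjusted threshold. This tile was named for its largest difference, and how many of all tiles show such an order at every stage was not counted. Stem and mature cells differed most at chr2:174111001-174112000, by 5.78 points (adjusted p = 0.444). Leaving out the stem or the mature library of week 9 gave 3.60 points, and of day 10 3.56 points. At p under 0.05, 1, 1 and 2 of the 10 tiles passed for stem against progenitor, stem against mature and progenitor against mature cells, against 9.23%, 10.9% and 5.95% of all tiles.

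The spread between libraries was set beside that of other tiles. At the 8 middle tiles the SD over the 18 libraries ran from 6.58 to 11.2 points with a median of 7.76, against a median of 8.49 for the 17079 middle tiles. Beside tiles within 10 points of their own mean level, 6 of the 8 had an SD under the median. Beside tiles of like level and like read depth, all 8 did, at percentiles from 14.8 to 48.6. The dispersion is the variance of libraries around the mean of their group of cell type and state, relative to that of read counting. It ran from 2.18 to 19.9 at these tiles, with a median of 5.44 against 4.23 for all middle tiles, a value that was not matched for depth. The highest was at chr2:174125001-174126000 in the Nespas and Gnasxl block. Over all 18 libraries that tile ranged from 25.9% in day 16 pregnant progenitor to 57.3% in retired mature cells. A retired library, alone in its group, adds nothing to the dispersion.

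**Figure D4:**
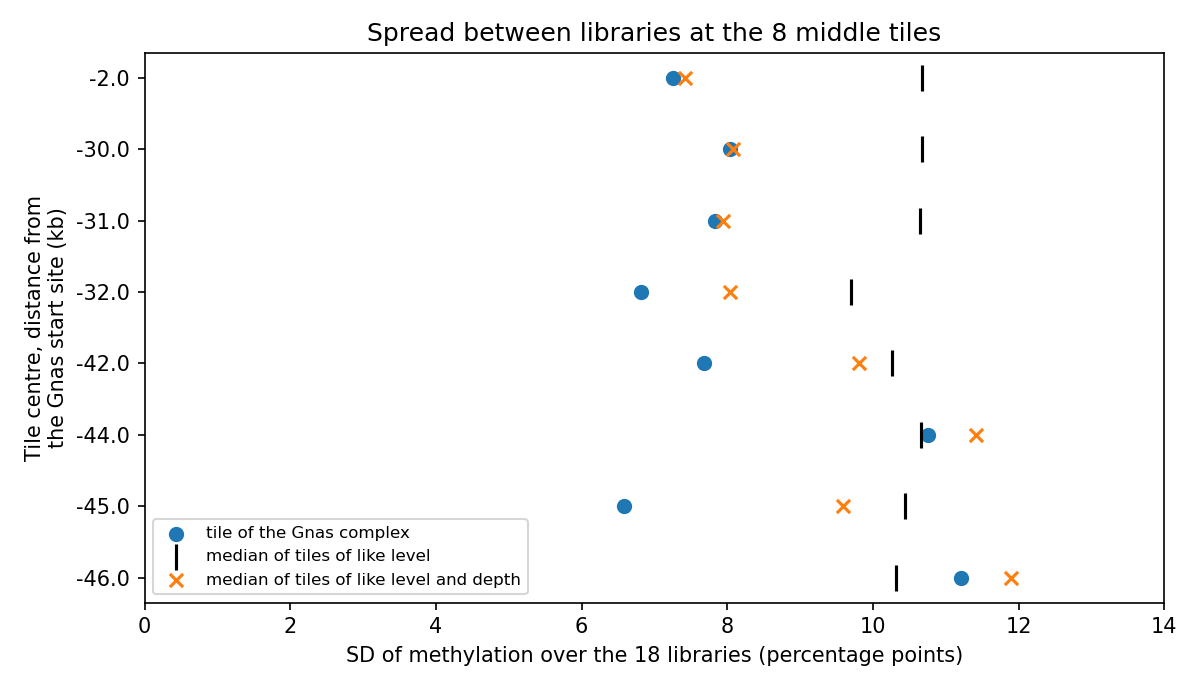
SD of methylation over the 18 libraries (percentage points) at the 8 middle tiles, placed by distance (kb) from the Gnas start site. Circles are the tiles of the complex, vertical ticks the median of tiles of like level and crosses the median of tiles of like level and depth; the circles lie left of the tick at 6 tiles and left of the cross at all 8.

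Depth differed between libraries and bears on these spreads. Reads summed over CpGs ran from 17513287 to 117922522 a library, with a median of 10 to 70 reads per CpG. In the exon 1A block the 5 libraries with a median under 15 reads averaged 50.4% ± 8.95 and the other 13 averaged 45.9% ± 5.90. In the Nespas and Gnasxl block the same libraries averaged 50.8% ± 6.14 and 49.0% ± 3.83. The part of depth in the differences between stages was not tested.

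Tiles elsewhere in the genome with the most similar values were found by the root mean square distance from each middle block over the 18 libraries. The nearest to the Nesp block was chr7:69522001-69523000, at 41.6% and a distance of 3.71 points. To the block downstream of Nesp it was chr6:148303001-148304000, at 37.9% and 5.04 points. The Nespas and Gnasxl block was nearest to chr4:133913001-133914000, at 50.9% and 4.36 points. The exon 1A block was nearest to chr11:80637001-80638000, at 46.1% and 5.18 points. The next in order were chr13:51732001-51733000 and chrX:32019001-32020000 for the Nesp block, chr8:87171001-87172000 and chr6:3132001-3133000 for the block downstream of it, chr4:139975001-139976000 and chr19:4947001-4948000 for the Nespas and Gnasxl block, and chrX:98580001-98581000 and chr10:89084001-89085000 for the exon 1A block. Over the 18 libraries, distances of the 12 tiles ran from 3.71 to 5.66 points.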

How the data were processed

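Multiplexed reduced representation bisulfite libraries of MspI-digested DNA were sequenced, per the labels' protocols. The 18 deposited files list methylated over total read counts for each CpG on build mm9, per the submitters' processing notes. In addition, 7 files hold a strand and a deposited score, 1000 times the methylated share, which was not used. These are all retired and all day 19 libraries and day 16 pregnant progenitor. No virgin library is among them, so file format cannot be told apart from retirement in retired against virgin. For the aligner, the methylation caller and duplicate handling, nothing is given in the sources used here.

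CpGs that every library covered with 5 reads or more (711980) were summed in 1000 bp tiles of at least 3 CpGs (77064 tiles). Quasi-binomial logistic regression used dispersions of at least 1, moderated by the squeezeVar method of limma, and F tests, with p-values adjusted by Benjamini-Hochberg across every tile. Pregnancy and retirement were fitted over 9 groups of cell type by state, and cell types and virgin stages with terms for cell type and stage. All libraries entered each fit. The test was checked on simulated counts for pregnancy in stem cells only. Dispersion was capped there below the highest values of the complex, so that check does not cover its most dispersed tiles.

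The complex, its rule, the tests and lists were chosen with earlier results of these data known. The tile of largest difference per comparison, the extreme CpGs of each block and the 3 nearest tiles elsewhere were named. Alternatives were 10 reads, 500 bp tiles, any CpG with 5 reads in a library, no minimum difference, limma on log2 ratios of counts plus 1, no stage term, unweighted means, and leaving out each library. Promoter sequences are from RefSeq (GRCm38.p6); of its coordinates only the distance between starts was used. Tools were Python 3.11.15, numpy 2.4.6, scipy 1.17.1, R 4.3.3 and limma 3.58.1.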

Additional observations from a re-analysis of the deposited data

How the results depend on the processing

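No tile of the complex was called in any of the 13 comparisons under the 302 alternatives run, which tested 7 tiles with a minimum of 10 reads, 13 tiles of 500 bp and 11 tiles with any CpG that had 5 reads in a library. limma on log2 ratios called 0 as well. For retired against virgin libraries, 5 of the 10 tiles had an unadjusted p under 0.05 with limma, against 2 in the logistic model. Among all 77064 tiles, 12657 did so with limma and 4096 in the logistic model. Over the genome the number of tiles called for pregnancy in stem cells was unstable. It was 122 of 77064, 33 with 10 reads, 0 with 500 bp tiles, 420 with any CpG and 0 with limma, and ran from 0 to 1245 when single libraries were left out. Some contrasts with 0 calls gained calls as well. The pregnancy effect of stem against mature cells reached 1264 tiles without the week 3 virgin mature library, and other contrasts at most 13 when a library was left out. limma called 38 tiles for retired against virgin and 65 for retired against pregnant libraries. Of 105 alternative block levels, 104 moved by less than 1 SD over libraries. The exception was the Nesp block, at 45.5% instead of 41.3% with a minimum of 10 reads, where 5 of its 12 CpGs remained. Leaving out single libraries kept its mean between 40.6 and 41.5%, and the median SD of the middle tiles between 7.07 and 7.97 points. Of 270 alternative differences at the named tiles, 1 changed sign. Many of the 270 left out a library that does not enter the difference and so could not change it. At the exon 1A tile the pregnancy effect in stem minus that in mature cells was 3.14 points without the week 9 virgin stem library, instead of -6.19 points, and -15.5 points without the week 3 one. With a minimum of 10 reads this value was -10.05 points, and at chr2:174113001-174114000 the pregnancy difference was -0.77 points in mature cells and -2.37 points averaged over cell types. The smallest adjusted p among the alternatives at these tiles was 0.138. Leaving out single libraries for the SD, and the counts of directions without the week 9 virgin stem library, were added after seeing the data. Cell types were compared within stages, and without the stage term 0 tiles of the complex were called too. Depth limits the retired and day 16 libraries most, and the fewest reads in a middle tile were 35.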
